A study of Mus musculus with 2 samples.

Results

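Glycolysis converts glucose to pyruvate in the cytosol, and lactate dehydrogenase can then turn pyruvate into lactate while pyruvate dehydrogenase sends it to the mitochondria. When oxygen is short, the transcription factor HIF-1 raises glucose transporters, glycolytic enzymes and pyruvate dehydrogenase kinases, and in myeloid cells pattern recognition and inflammatory signals can engage the same program with oxygen present. Activated dendritic cells (DCs) are known for an early use of glycolysis, and a set of 33 mouse genes of this pathway was followed here in migratory DCs. The set held glucose and lactate transporters, the enzymes from hexokinase to lactate dehydrogenase, the enzymes that make or remove fructose-2,6-bisphosphate, pyruvate dehydrogenase with its kinases, and genes of the hypoxia response. The members were listed by name, by a rule that uses no measured value, though earlier results of these data were known when the list was made, and 32 of the 33 had a column among the 18049 genes of both expression tables. No column was found for Pdk4.

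The cells came from a CITEseq experiment, in which mRNA and antibody-bound surface proteins of single cells are counted together. Live MHCIIhi CD11c+ B220- cells were sorted from lymph nodes of B6 mice that were unimmunized (naive) or had received OVA with the protease allergen papain in the rear footpads 1 day before. Popliteal nodes were taken from the immunized mice. The labels name the same nodes for the naive mice, whereas the study's methods name pooled nodes that drain the skin, so that a difference between the libraries cannot be told apart from a difference in node site. Each condition was 1 library, the number of mice behind it was not given in the sources used here, and no test between conditions was possible. All intervals given are 95% intervals of counting error only, and leave out variation between mice and libraries.

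The authors divided the cells by surface antibody into Langerhans cells (LCs), cDC1s, and CD301blo, CD301bint and CD301bhi cDC2s. The naive library held 440, 578, 658, 659 and 707 cells of these classes, and the papain library held 881, 235, 1470, 1827 and 2893. The median depth of a class lay between 10768 and 15807 UMIs (unique molecules) among naive cells and between 11351 and 18290 among papain cells, and mitochondrial UMIs made up 3.78% to 4.29% and 2.88% to 3.48%. Epcam was highest in LCs at 102 and 156 CPM (counts per 1000000 UMIs) in naive and papain LCs, Xcr1 in cDC1s at 16.9 and 9.4 CPM, and Sirpa in the cDC2 classes. Mgl2, which encodes CD301b, did not follow the papain antibody classes, with 0.83, 0.48 and 1.21 CPM from CD301blo to CD301bhi cDC2s. Among naive cDC2s it was highest, at 276 CPM, in a group of cells described further on. Of that group 58.1% was CD301blo and 15.9% CD301bhi. The monocyte or macrophage list (6 of 6 genes with a column) summed to 617 to 743 CPM in naive cDC2 classes, of which Lyz2 made up 552 to 672, and to 25.0 to 105 CPM in papain cDC2 classes. The list of 4 dissociation or stress genes (Fos, Jun, Hspa1a and Hspa1b) was higher in every naive class, at 955 to 2085 CPM against 478 to 1175 CPM. The defining markers of keratinocytes and neutrophils had no column. The libraries shared 2 barcodes.

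Promoter sequence is shown first for 4 of the members named in the comparisons described further on. Hk2 was lower in papain cDC2s, Pfkfb3 and Pdk3 were higher in CD301bhi than in CD301blo cDC2s in both libraries, and Ldha was higher in papain LCs. The 100 bases before a RefSeq transcription start are printed 5′ to 3′ on the strand of the gene, from assembly GRCm38.p6. Pfkfb3 and Ldha have 2 entries each in the promoter table, of which the one farther upstream is shown, and the annotated gene of both reaches farther upstream still. Capitals mark the letters ACGTG or GCGTG, read on either strand (as CACGT or CACGC on the other), which hold the core that HIF-1 is known to bind.
Hk2 (chr6:82774455-82774554, minus strand): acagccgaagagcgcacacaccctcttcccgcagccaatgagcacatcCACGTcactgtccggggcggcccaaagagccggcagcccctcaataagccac
Pfkfb3 (chr2:11553930-11554029, minus strand): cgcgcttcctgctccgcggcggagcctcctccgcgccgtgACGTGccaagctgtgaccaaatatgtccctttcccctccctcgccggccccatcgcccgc
Ldha (chr7:46845704-46845803, plus strand): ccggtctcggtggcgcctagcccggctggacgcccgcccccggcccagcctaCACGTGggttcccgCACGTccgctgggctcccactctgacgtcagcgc
Pdk3 (chrX:93832151-93832250, minus strand): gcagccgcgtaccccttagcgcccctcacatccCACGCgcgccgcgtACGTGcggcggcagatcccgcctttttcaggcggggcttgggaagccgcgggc

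The match in Hk2 began 52 bases before the start and that in Pfkfb3 60 bases before it. Ldha held 3 matches, of which those at -48 and -47 overlap as the palindrome CACGTG and the other began at -34, and Pdk3 held matches at -67 and -53. In the full 300-base entries of the table, which run from 250 bases before to 50 after a start, 32 of the 33 members matched an entry (Slc2a3 did not), and 30 of them had at least 1 entry with these letters. That was 93.8% of the members with an entry, where 46.7% of all 27025 genes in the table had one. Counted by entry, the letters stood in 82.6% of the 46 member entries and 43.8% of all 32851. Some members of the comparisons lacked them in the kind of entry shown above. The entries farther upstream of Vegfa, Aldoa, Hk1 and Pkm held none, though each had them in an entry farther downstream. Tpi1 and Gpi1 had none in their only entries. The comparison with all genes in that table was not limited to genes with a column or enough UMIs here, and genes with more entries had more windows to match. Base composition was not taken into account. A match describes letters in a window and was not tested as a binding site.

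The first comparison asked how the genes differed between papain-immunized and naive mice within each class. In cDC2s the papain library was lower in the glucose transporter Slc2a3, in Hk2, the inducible hexokinase that traps glucose in the cell, and in the angiogenic factor Vegfa. Vegfa was lower in LCs and cDC1s as well, and Hk2 in cDC1s. LCs of the papain library were higher in Aldoa, Eno1 and Ldha. A gene was counted as past the threshold when the group with more of it reached 10 CPM and the difference was 1.5-fold or more. In 22 members this level was reached in at least 1 of the 10 groups of class and library. In CD301bhi cDC2s, 1 of 19 members with enough UMIs was higher (10.2% of all genes were) and 5 were lower (8.39% of all genes). In CD301bint cDC2s, 0 of 19 were higher (10.7% of all genes) and 3 lower (10.5%), and in CD301blo cDC2s 1 of 19 was higher (11.0%) and 5 lower (14.2%). These counts changed without the authors' naive mRNA cluster 5, described further on and left out after seeing the data. In CD301bhi cDC2s 2 of 18 were then higher (10.5%), Ldha and Pdk3, and 3 lower (7.10%), in CD301bint cDC2s 3 of 18 were higher (11.0%), Aldoa, Eno1 and Ldha, and 2 lower (7.57%), and in CD301blo cDC2s 1 of 19 was higher (10.3%) and 4 lower (9.63%). In LCs, 4 of 21 were higher (14.4%) and 3 lower (9.21%), and in cDC1s 2 of 18 were higher (10.3%) and 2 lower (12.6%). The median log2 ratio over the members was 0.18, 0.10 and -0.18 in CD301bhi, CD301bint and CD301blo cDC2s, 0.25 in LCs and -0.00 in cDC1s, beside 0.09, 0.05, 0.01, 0.06 and 0.02 over all genes with enough UMIs. In every class members stood on both sides of 0. The monocyte or macrophage list, the stress list and the mitochondrial share given above also differed between the libraries. So did the dividing cell markers Mki67 and Top2a, both with a column, which summed to 28.4, 36.4, 70.0, 63.8 and 78.6 CPM in naive and to 55.1, 28.0, 41.2, 89.6 and 122 CPM in papain LCs, cDC1s and CD301blo, CD301bint and CD301bhi cDC2s. The part of these markers and shares in the ratios was not tested except where a result is given without a cluster or cells.

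**Figure D1:**
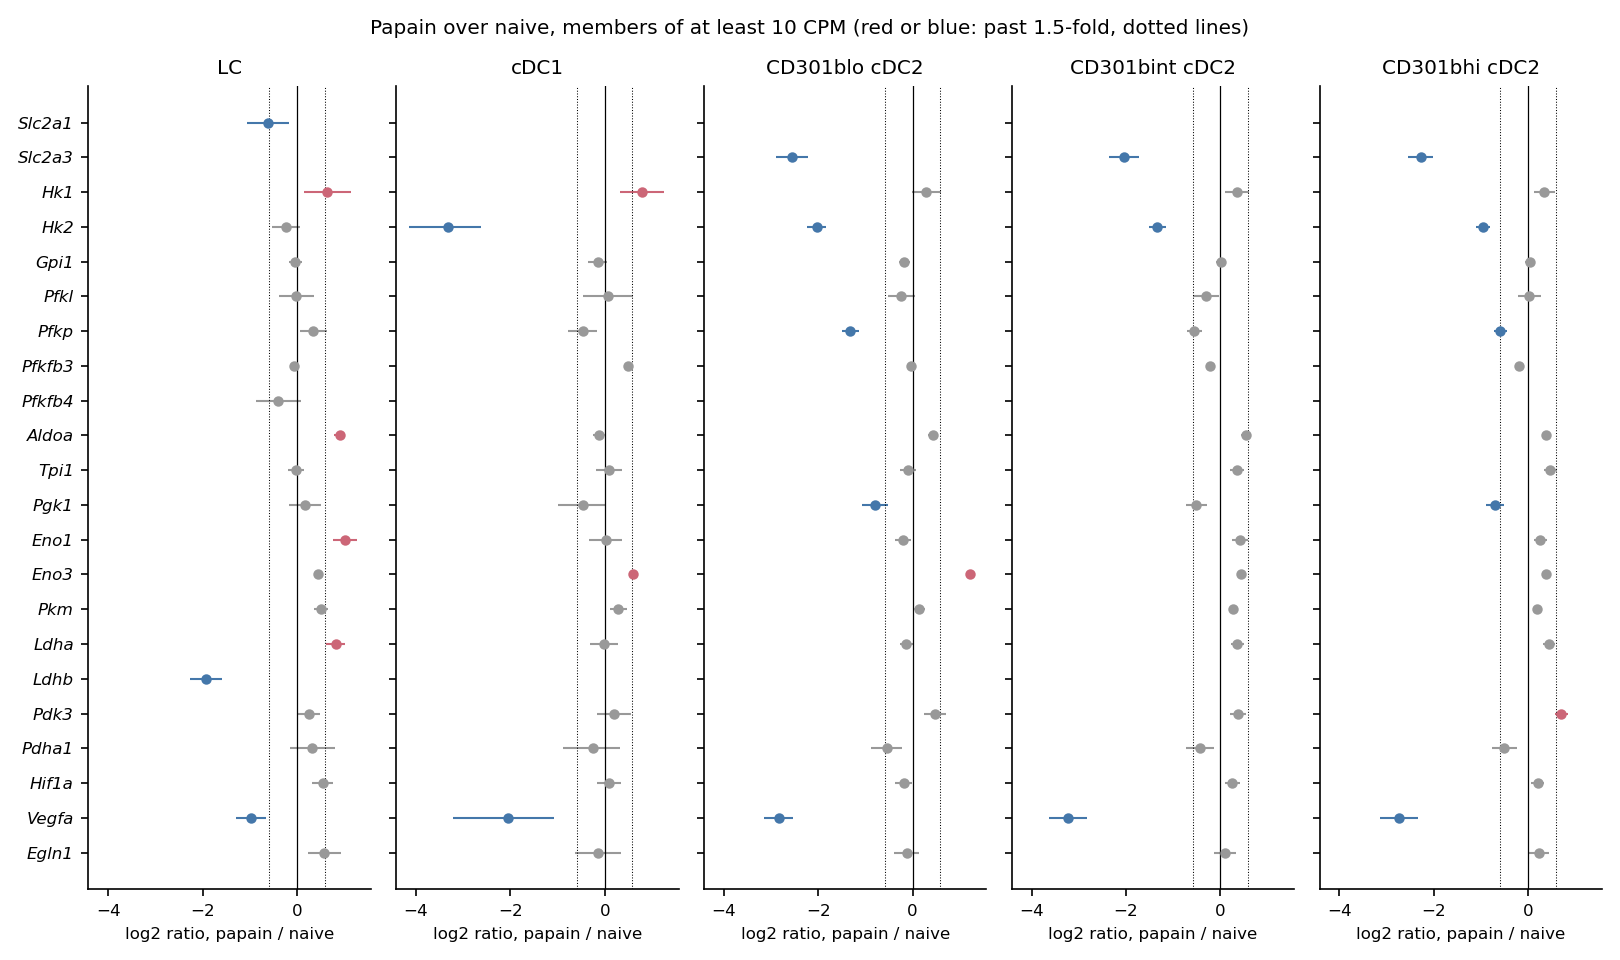
Log2 ratio of papain over naive (x axis) for each member with at least 10 CPM in the higher library (y axis, in pathway order), in 5 panels by antibody class. Points are ratios of CPM from summed UMIs, bars are 95% counting intervals, dotted lines mark 1.5-fold, and red or blue points are past it. Vegfa is blue in every class, Slc2a3 in the 3 cDC2 classes, and the red points of Aldoa, Eno1 and Ldha stand in LCs.

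Among the transporters, Slc2a3 (GLUT3), a high-affinity glucose transporter, was at 30.5, 19.7 and 21.1 CPM in naive CD301blo, CD301bint and CD301bhi cDC2s and at 5.21, 4.80 and 4.35 CPM in the papain ones. The log2 ratios were -2.55 (-2.90 to -2.21), -2.04 (-2.36 to -1.72) and -2.28 (-2.55 to -2.01). LCs and cDC1s had 4.14 and 4.74 CPM in the naive library and 0.98 and 0.65 CPM in the papain library, below the minimum level. Slc2a1 (GLUT1), the widely used glucose transporter, had a ratio below 0 in all 5 classes, with an interval that included 0 in cDC1s. It passed the minimum in LCs alone, with 12.2 CPM in naive and 7.96 CPM in papain LCs. The log2 ratio there was -0.62 (-1.05 to -0.18). With 1 CPM added, Slc2a1 was under 1.5-fold in LCs, at -0.56. In cDC2s it went from 9.32, 5.42 and 5.25 CPM to 3.60, 2.62 and 2.81 CPM, values too low to be counted. Slc16a1 (MCT1), which carries lactate and pyruvate across the membrane, was likewise low, at 5.64, 5.61 and 6.48 CPM in naive and 1.33, 1.39 and 1.46 CPM in papain cDC2s from CD301blo to CD301bhi. Slc16a3 (MCT4), the lactate exporter of glycolytic cells, stayed at 4.21 to 7.68 CPM over the 10 groups, and each of its 5 intervals of papain over naive included 0. In the sum of the 4 transporters, naive cDC2 classes stood at 36.6 to 50.5 CPM and papain ones at 14.4 to 15.3 CPM.

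At the entry of glycolysis the hexokinase genes differed in direction. Hk2 was at 67.6, 49.0 and 47.0 CPM in naive and 16.5, 19.5 and 24.3 CPM in papain CD301blo, CD301bint and CD301bhi cDC2s. The log2 ratios were -2.03 (-2.24 to -1.83), -1.33 (-1.51 to -1.16) and -0.95 (-1.10 to -0.80), and the intervals of the 3 classes did not overlap. Without naive mRNA cluster 5 they were -1.42 (-1.66 to -1.18), -0.85 (-1.05 to -0.64) and -0.75 (-0.91 to -0.58), and the last 2 overlapped. In LCs Hk2 was at 24.5 and 20.6 CPM, with an interval that included 0 (-0.53 to 0.05). Hk1, the constitutive hexokinase, had a ratio above 0 in all 5 classes. It went from 12.01 to 20.8 CPM in cDC1s, with a log2 ratio of 0.79 (0.33 to 1.25), and from 7.71 to 11.9 CPM in LCs, with 0.63 (0.14 to 1.15). The LC value of Hk1 was under 1.5-fold in 4 of the alternative settings, at 0.45 without the shallower cells (those with the fewest UMIs). It was under the minimum level without cells that held a Mki67 or Top2a UMI. In the cDC2 classes the log2 ratio of Hk1 was 0.28 to 0.34, and the CD301blo interval included 0. Hk3 stayed at 0 to 1.30 CPM.

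The Hk2 level of naive cDC1s rested on few cells. Hk2 was at 52.3 CPM in the 578 naive cDC1s and 5.21 CPM in the 235 papain cDC1s, a log2 ratio of -3.33 (-4.15 to -2.62). Of the 497 Hk2 UMIs of naive cDC1s, 374 lay in the 78 cells that also held a UMI of the T cell genes Cd3e or Trac, where Hk2 reached 253 CPM (228 to 280). The authors marked the same 78 naive cDC1s by these genes in a column on conjugation with T cells. Without cells that held such a UMI the naive level was 15.3 CPM, the papain level 5.52 CPM and the log2 ratio -1.48. The 4 T cell markers summed to 146 CPM in naive cDC1s and to 20.5 CPM in papain cDC1s, and to 8.4 to 43.7 CPM in the cDC2 classes of both libraries. Ldha was also high in those 78 cells, at 123 CPM against 27.7 CPM in the other 500 naive cDC1s. No doublet caller was run, and the part of doublets or of RNA from T cells in these values was not tested beyond this split.

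Phosphofructokinase commits sugar to glycolysis, and its platelet isoform Pfkp was lower in papain cDC2s. Pfkp was at 63.4, 45.9 and 53.0 CPM in naive and 25.4, 31.2 and 35.2 CPM in papain CD301blo, CD301bint and CD301bhi cDC2s. The log2 ratios were -1.32 (-1.50 to -1.14), -0.55 (-0.72 to -0.39) and -0.59 (-0.72 to -0.46). The CD301bhi ratio lay at the threshold and was under 1.5-fold in 4 planned settings. It was -0.39 by the mean over cells and -0.42 without the shallower cells. It was -0.57 without cells that held a Cd3e or Trac UMI and -0.58 with 1 CPM added. Without naive mRNA cluster 5, left out after seeing the data, the ratio was -0.26 in CD301blo and -0.24 in CD301bhi cDC2s, both under 1.5-fold. In LCs the direction was the other one, from 23.1 to 29.3 CPM with a log2 ratio of 0.34 (0.05 to 0.63), and this difference between classes was not tested. The liver isoform Pfkl was at 12.7 to 18.1 CPM and under 1.5-fold in all 5 classes, and the muscle isoform Pfkm was at 0 to 0.75 CPM. The product of Pfkfb3, fructose-2,6-bisphosphate, activates phosphofructokinase. Pfkfb3 was under 1.5-fold in all 5 classes, with 534 and 510 CPM in naive and papain LCs, 348 and 338 CPM in CD301blo and 702 and 616 CPM in CD301bhi cDC2s. The log2 ratio was -0.21 in CD301bint and -0.19 in CD301bhi cDC2s, and 3 of its 5 intervals lay below 0. In cDC1s it was higher in the papain library, at 637 against 454 CPM, with a log2 ratio of 0.49, which is under 1.5-fold. Pfkfb4, a relative of Pfkfb3, was at 2.93 to 10.2 CPM.

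In the lower part of glycolysis, Aldoa, Eno1 and Ldha were past 1.5-fold in LCs. With smaller ratios they were above 0 in CD301bint and CD301bhi cDC2s, whereas in CD301blo cDC2s Aldoa alone was above 0. The CD301blo ratio of Ldha was also above 0 without naive mRNA cluster 5, described further on and left out after seeing the data. Aldoa, the aldolase that splits fructose-1,6-bisphosphate, was at 120 CPM in naive and 224 CPM in papain LCs, with a log2 ratio of 0.90 (0.78 to 1.03). Eno1, the common enolase, went from 26.9 to 54.2 CPM in LCs, with 1.01 (0.76 to 1.27). Ldha, which makes lactate from pyruvate, went from 44.2 to 78.0 CPM in LCs, with 0.82 (0.62 to 1.02). Papain LCs were also sequenced deeper, with a median of 18290 UMIs per cell against 10768. Over the alternative settings the LC ratio kept to 0.84 to 1.02 for Aldoa, 0.91 to 1.25 for Eno1 and 0.76 to 0.96 for Ldha. These settings include leaving out the shallower cells, which does not make the depth of the libraries equal. The part of depth in the LC ratios was not tested. Mki67 was also higher in papain LCs, at 47.5 against 15.4 CPM, and without cells that held a Mki67 or Top2a UMI the ratios were 1.02, 1.25 and 0.96.

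In cDC2s, Aldoa was at 112, 124 and 143 CPM in naive and 152, 180 and 186 CPM in papain cells from CD301blo to CD301bhi, with log2 ratios of 0.44, 0.54 and 0.38. Eno1 was at 48.2, 37.0 and 42.5 CPM in naive and 42.1, 49.5 and 50.7 CPM in papain cells, with log2 ratios of -0.20 (-0.37 to -0.02), 0.42 (0.26 to 0.59) and 0.26 (0.11 to 0.40). Ldha was at 70.3, 53.8 and 50.3 CPM in naive and 64.3, 68.8 and 68.5 CPM in papain cells, with log2 ratios of -0.13 (-0.27 to 0.01), 0.36 (0.22 to 0.49) and 0.44 (0.32 to 0.57). The 3 papain classes were thus nearly level in Ldha, whereas in the naive library CD301blo cDC2s were above both others. The naive log2 ratio of CD301bhi over CD301blo cDC2s in Ldha was -0.48 (-0.65 to -0.32). It was -0.15 (-0.35 to 0.07) without naive mRNA cluster 5, a group of cells described further on. Leaving it out was a setting added after seeing the data. In that setting naive CD301blo cDC2s had 47.8 CPM of Ldha, below the 64.3 CPM of papain ones. Their ratio of papain over naive, -0.13 with all cells, was then above 0. Pkm, the pyruvate kinase of non-hepatic cells, was higher in the papain library in all 5 classes, by 0.14 to 0.51, with all 5 intervals above 0 and none past 1.5-fold. Gpi1, the isomerase after hexokinase, was at 88.5 to 104 CPM in all 10 groups. The triosephosphate isomerase Tpi1 was at 39.7 and 55.1 CPM in naive and papain CD301bhi cDC2s, with a log2 ratio of 0.47 (0.33 to 0.62). In cDC1s the ratios of Aldoa, Eno1 and Ldha were -0.12, 0.02 and -0.02. With cells that held a Cd3e or Trac UMI left out, Ldha was at 27.7 CPM in naive and 40.3 CPM in papain cDC1s, a log2 ratio of 0.54 (0.21 to 0.87), Eno1 was at 22.1 and 29.3 CPM, with 0.41 (0.02 to 0.79), and Aldoa was at -0.14 (-0.28 to -0.00), all under 1.5-fold.

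**Figure D2:**
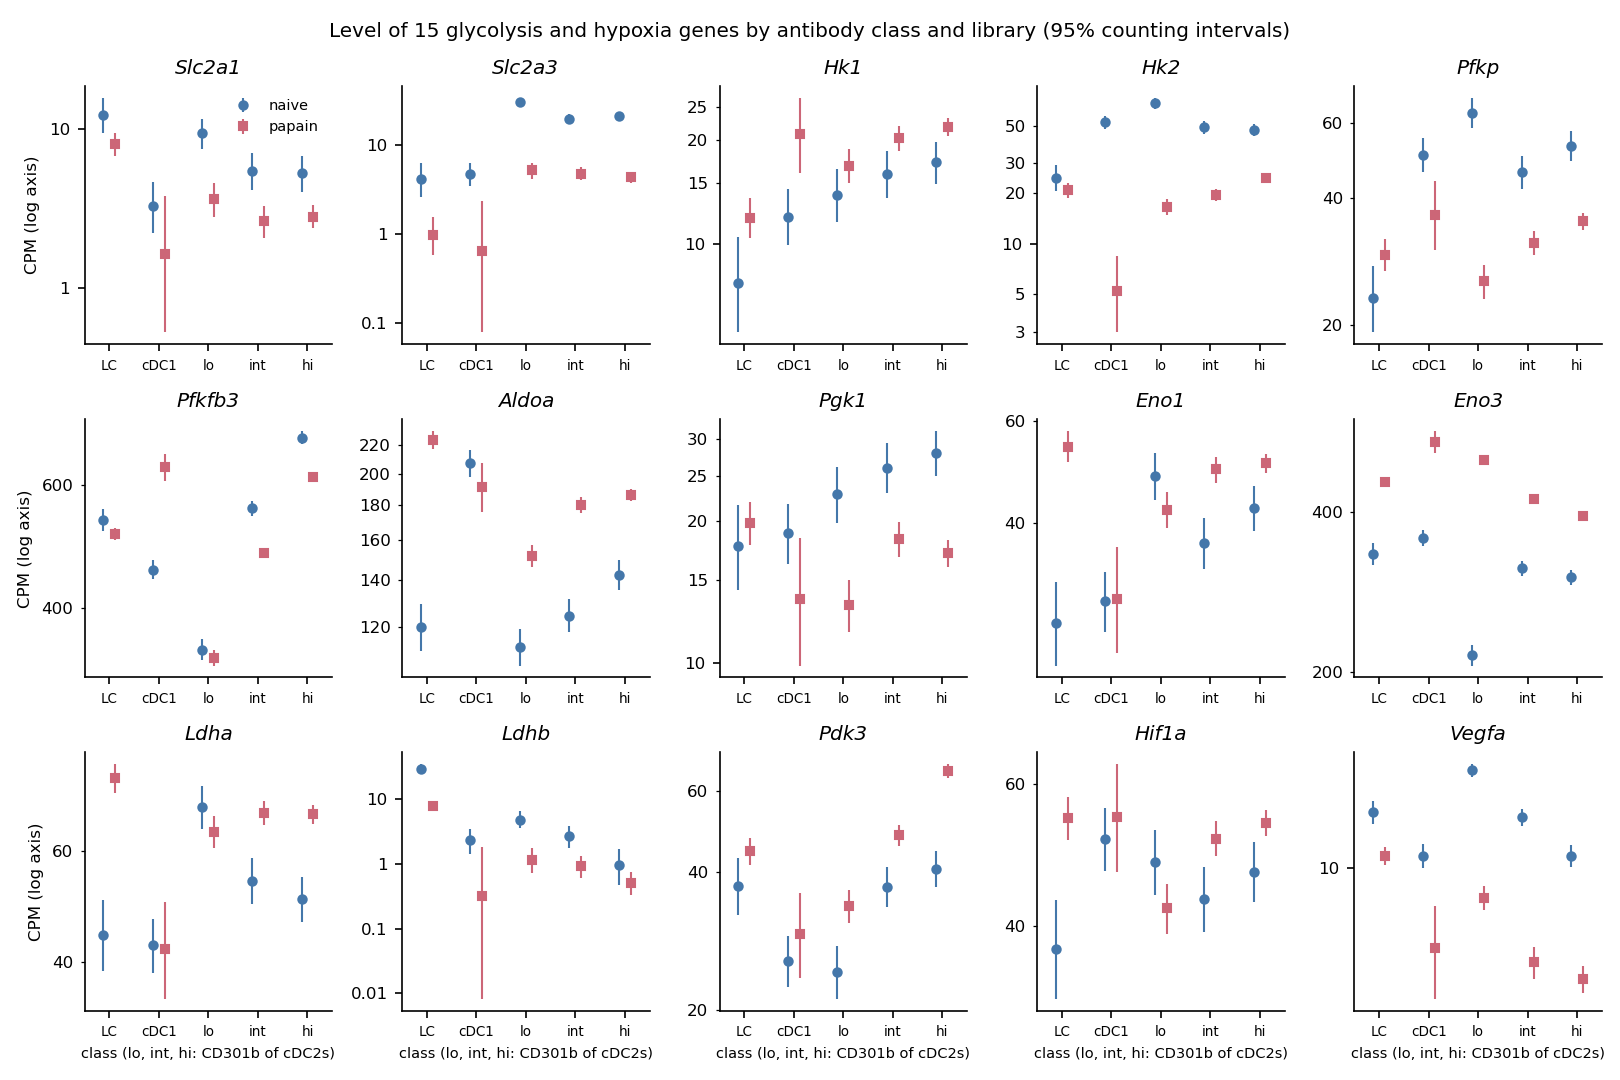
Level of 15 members in CPM (y axis, log scale, its range differing between panels) by antibody class (x axis) in the naive (blue circles) and papain (red squares) library, each 1 library, with 95% counting intervals. Blue lies above red for Slc2a3 and Vegfa in every class, and the red LC points of Aldoa, Eno1 and Ldha lie at 224, 54.2 and 78.0 CPM against 120, 26.9 and 44.2 CPM in blue.

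Pgk1, the X-linked phosphoglycerate kinase that makes the first ATP of the pathway, was lower in papain cDC2s. It went from 22.9, 26.0 and 27.9 CPM to 13.2, 18.3 and 17.1 CPM, with log2 ratios of -0.79 (-1.06 to -0.51), -0.51 (-0.72 to -0.29) and -0.71 (-0.90 to -0.52). Eno3, the enolase known from muscle, was higher in the papain library in all 5 classes, most in CD301blo cDC2s, from 215 to 503 CPM, with a log2 ratio of 1.22 (1.15 to 1.29), or 0.90 (0.83 to 0.98) without naive mRNA cluster 5, and in cDC1s from 358 to 542 CPM, with 0.60 (0.51 to 0.68). Without cells that held a Cd3e or Trac UMI the cDC1 levels were 387 and 519 CPM and the log2 ratio was 0.42, under 1.5-fold, as was 0.58 after centring on all genes. The Eno3 values are uncertain. In RefSeq, Eno3 (chr11:70653125-70662513) shares 3675 bases with Pfn1, an actin-binding gene at 811 to 1868 CPM in these groups, and reads from the shared stretch could be counted for either gene. Gapdh and Pgam1, which have many near-identical copies in the mouse genome, were at 2.38 to 5.27 CPM and 0.38 to 1.05 CPM and are uncertain for that reason. Gapdh did not reach the minimum level in any group, with log2 ratios of papain over naive from -0.87 to 0.31 and 2 of the 5 intervals below 0. Aldoc stayed at 0.33 to 2.03 CPM.

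Summed over the 18 enzymes from hexokinase to lactate dehydrogenase, the papain library was higher in all 5 classes, with 1209 against 901 CPM in LCs, 1150 against 1026 in cDC1s, and 1098, 1111 and 1100 against 893, 936 and 952 in CD301blo, CD301bint and CD301bhi cDC2s. With the uncertain Eno3 left out the sum was lower in the papain library in cDC1s (607 against 668 CPM) and CD301blo cDC2s (595 against 678 CPM). It remained higher in LCs (752 against 567 CPM), CD301bint (687 against 623 CPM) and CD301bhi cDC2s (706 against 651 CPM). These lower sums did not hold in settings added after seeing the data. Without Eno3 and without cells that held a Cd3e or Trac UMI, the cDC1 sum was 582 CPM in naive and 607 CPM in papain cells, a log2 ratio of 0.06 (-0.02 to 0.14). Without Eno3 and naive mRNA cluster 5, the CD301blo sum was 573 and 595 CPM, with 0.05 (0.00 to 0.11).

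Ldhb, the isoform that favours pyruvate, was an LC gene in the naive library, at 29.9 CPM in LCs and 0.96 to 4.88 CPM in the other 4 classes. In the papain library LCs held 7.85 CPM, a log2 ratio of -1.93 (-2.27 to -1.60), and the other classes 0.33 to 1.16 CPM. Among the regulators of pyruvate oxidation, Pdk3, a kinase that inhibits pyruvate dehydrogenase, had a ratio above 0 in all 5 classes. It passed 1.5-fold in CD301bhi cDC2s, from 40.6 to 66.3 CPM with a log2 ratio of 0.71 (0.57 to 0.85), and the other classes had 0.19 to 0.47, with an interval that included 0 in cDC1s. The CD301bhi ratio was 0.93 without cells that held a Mki67 or Top2a UMI. Pdk1, the kinase best known as a HIF-1 target, was at 2.87 to 8.02 CPM. Pdha1, the catalytic subunit of the dehydrogenase, was at 8.65 to 14.8 CPM, with log2 ratios of -0.55, -0.43 and -0.50 in the cDC2 classes, each interval below 0, and 0.31 (-0.16 to 0.81) in LCs.

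Of the hypoxia genes, Hif1a encodes the oxygen-regulated subunit of HIF-1. It was at 37.4, 51.3, 48.0, 43.2 and 46.7 CPM in naive and 54.4, 54.7, 42.0, 51.4 and 53.7 CPM in papain LCs, cDC1s and CD301blo, CD301bint and CD301bhi cDC2s. The log2 ratio was largest in LCs, at 0.54 (0.32 to 0.77), and under 1.5-fold in all 5 classes, with 3 intervals above 0 and 1 below. Vegfa, a classical HIF target, was lower in the papain library in all 5 classes. It went from 45.3, 22.0 and 12.1 CPM to 6.37, 2.35 and 1.82 CPM from CD301blo to CD301bhi cDC2s, with log2 ratios of -2.83 (-3.14 to -2.53), -3.23 (-3.64 to -2.83) and -2.73 (-3.13 to -2.34). Naive mRNA cluster 5 held 61.3% of the Vegfa UMIs of naive cDC2s, and without it, a setting added after seeing the data, the ratios were -2.26 (-2.60 to -1.92), -1.32 (-1.86 to -0.77) and -1.30 (-1.82 to -0.76). The naive levels were then 30.5, 5.85 and 4.47 CPM, so that Vegfa was counted in CD301blo cDC2s and was under the minimum level in the other 2 classes. In LCs it went from 23.9 to 12.2 CPM, with -0.98 (-1.30 to -0.65), and in cDC1s from 12.1 to 2.93 CPM, with -2.05 (-3.21 to -1.07). Of the 115 Vegfa UMIs of naive cDC1s, 44 lay in the 78 cells that held a Cd3e or Trac UMI. Without such cells Vegfa was at 8.85 and 3.10 CPM in cDC1s, under the minimum level, with -1.51 (-2.70 to -0.51). It was also under that level by the mean over cells (-2.70) and without the shallower cells (-2.64). Egln1, the prolyl hydroxylase that marks HIF-1 for degradation, was at 15.3 to 24.4 CPM and under 1.5-fold throughout. Egln3, a hydroxylase that HIF-1 induces, and Bnip3, a mitophagy receptor and HIF target, were at 0.09 to 1.90 CPM and 1.11 to 5.27 CPM.

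The next comparisons asked how the classes differed within a library, where library and node site are shared. CD301bhi cDC2s stood above CD301blo cDC2s in Pfkfb3 and Pdk3 in both libraries. Pfkfb3 was at 348, 555 and 702 CPM from CD301blo over CD301bint to CD301bhi cDC2s in the naive library and at 338, 479 and 616 CPM in the papain library, with log2 ratios of CD301bhi over CD301blo of 1.01 (0.95 to 1.07) and 0.86 (0.82 to 0.90). The order of the 3 classes was the same in both libraries and their intervals did not overlap. An overlapping long noncoding RNA gene, Gm10851, at 39.5 to 77.1 CPM, could share reads with Pfkfb3. Pdk3 was at 24.3, 37.2 and 40.6 CPM in naive cells and 33.7, 48.0 and 66.3 CPM in papain cells, with log2 ratios of 0.74 (0.51 to 0.98) and 0.98 (0.85 to 1.10). Without cells that held a UMI of the dividing cell genes Mki67 or Top2a, whose summed level was above that of CD301blo cDC2s in CD301bhi cDC2s of both libraries, the log2 ratios were 1.02 and 0.94 for Pfkfb3 and 0.69 and 1.21 for Pdk3. Vegfa had the opposite order in the naive library, with a log2 ratio of -1.91 (-2.19 to -1.63), and was under the minimum level in papain cDC2s. These were the members past the threshold, 2 of 19 higher (5.02% of all genes) and 1 lower (9.53%) in the naive library, and 2 of 17 higher (4.28%) and 0 lower (3.99%) in the papain library. The classes were cut from the CD301b antibody value, which no member gene entered. The median log2 ratio of the members was -0.18 among naive and 0.29 among papain cells, beside -0.06 and 0.01 over all genes. Above 0 were 7 of 19 naive members (36.8%, against 42.6% of all genes) and 14 of 17 papain members (82.4%, against 51.8%). Hk2 and Pfkp had ratios of opposite sign in the libraries. For Hk2 the log2 ratio of CD301bhi over CD301blo was -0.52 (-0.69 to -0.36) among naive and 0.56 (0.38 to 0.75) among papain cells, and for Pfkp -0.26 (-0.43 to -0.09) and 0.47 (0.32 to 0.62), all under 1.5-fold. With naive cluster 5 left out, a setting added after seeing the data, the naive ratio was 0.46 (0.21 to 0.70) for Pfkp, the sign of the papain library, and -0.11 (-0.33 to 0.11) for Hk2, whose interval then included 0.

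LCs were next compared with all cDC2s of their library. In the naive library 3 of 22 members were higher in LCs (11.6% of all genes) and 6 lower (13.8%), and in the papain library 1 of 18 was higher (6.80%) and 1 lower (6.02%). Ldhb was higher in LCs than in all cDC2s together by 3.46 (3.07 to 3.86) on the log2 scale in the naive library. In the papain library the log2 ratio was 3.38 (2.96 to 3.80), at levels under the minimum. Slc2a1 was higher in LCs by 0.91 (0.48 to 1.32) and Tpi1 by 0.65 (0.48 to 0.82) in the naive library. Slc2a3 (-2.50, -3.18 to -1.89), Hk2 (-1.14, -1.41 to -0.88), Pfkp (-1.21, -1.49 to -0.95) and Hk1 (-1.04, -1.53 to -0.57) were lower. So were Eno1 (-0.65, -0.91 to -0.40) and Pdha1 (-0.70, -1.17 to -0.26). Without the shallower cells Eno1 was at -0.48, under 1.5-fold. Without naive mRNA cluster 5, a setting added after seeing the data, 5 of 22 members were higher in LCs (12.1% of all genes) and 4 lower (11.9%). Eno1 (-0.34, -0.60 to -0.08) and Pdha1 (-0.50, -0.98 to -0.05) were then under 1.5-fold, Pfkp was at -0.61 (-0.90 to -0.34) and Hk2 at -0.70 (-0.97 to -0.43), Slc2a1 was at 1.66 (1.19 to 2.12), and Slc2a3 at -2.03 (-2.72 to -1.41). Vegfa, at -0.08 (-0.36 to 0.19) with all cells, was higher in LCs by 1.04 (0.73 to 1.34) without that cluster, and Pfkfb4 by 0.62 (0.16 to 1.07). Of the glucose transporter genes, naive LCs had more Slc2a1 and less Slc2a3 than naive cDC2s with and without it. In the papain library Vegfa was higher in LCs by 2.11 (1.85 to 2.37), at 12.2 CPM against 6.37 CPM or less in the cDC2 classes, and Hk1 was lower by -0.78 (-0.99 to -0.58). Hk2 and Pfkp, lower in naive LCs, had log2 ratios of -0.05 and -0.14 in the papain library.

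Among cDC1s, 1 of 19 members was higher than in cDC2s (11.9% of all genes) and 2 lower (17.2%) in the naive library, and 0 of 16 were higher (9.66%) and 4 lower (16.7%) in the papain library. Aldoa was higher in naive cDC1s, at 207 CPM, by 0.70 (0.62 to 0.78). Slc2a3 and Vegfa were lower there, by -2.31 (-2.77 to -1.87) and -1.06 (-1.36 to -0.78). Without naive mRNA cluster 5, a setting added after seeing the data, the cDC2 level of Vegfa went from 25.3 to 11.6 CPM and the ratio turned to 0.06 (-0.26 to 0.38), while Slc2a3 was at -1.83 (-2.31 to -1.39) and Aldoa at 0.72. Under this setting 1 of 19 members was higher (12.1% of all genes) and 1 lower (15.1%). In papain cDC1s, Hk2 (-2.04, -2.85 to -1.34) and Pdk3 (-0.90, -1.22 to -0.60) were lower than in cDC2s. So were Eno1 (-0.72, -1.03 to -0.42) and Ldha (-0.69, -0.95 to -0.44). Eno1 was under 1.5-fold without cells that held a Mki67 or Top2a UMI (-0.55), and Ldha after centring on all genes (-0.57). Without cells that held a Cd3e or Trac UMI, 1 of 19 members was higher (12.4% of all genes) and 7 were lower (21.3%) in naive cDC1s than in cDC2s.

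**Figure D3:**
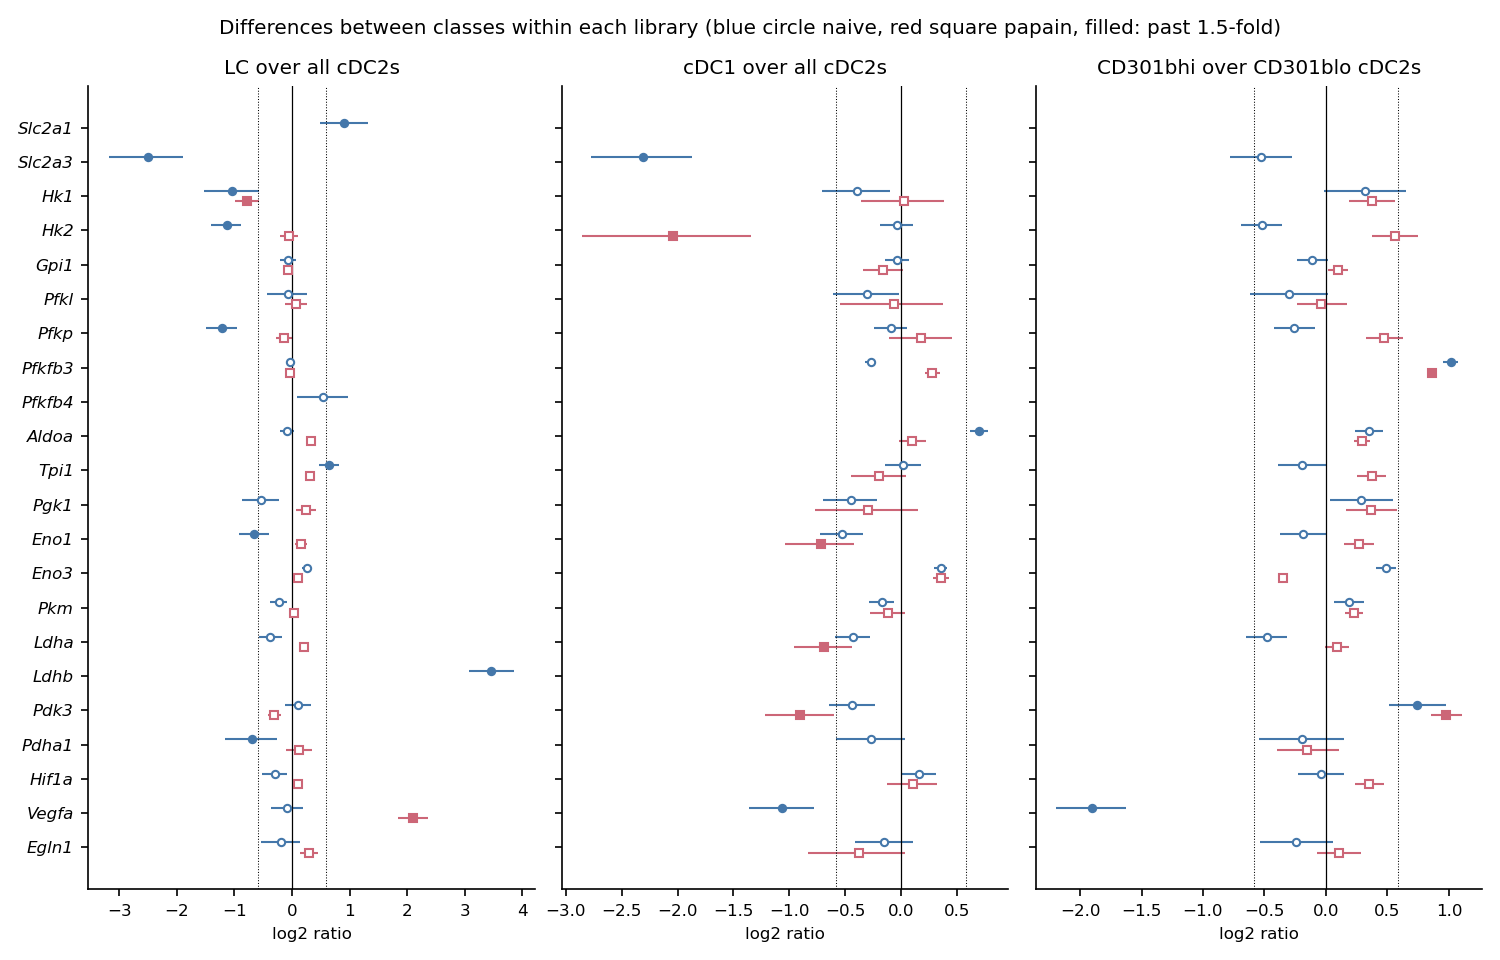
Log2 ratio between classes (x axis, its range differing between panels) for each member (y axis), with naive as blue circles and papain as red squares, 95% counting intervals, dotted lines at 1.5-fold and filled symbols past it. Members under 10 CPM in both classes are not drawn. In the right panel the filled symbols of Pfkfb3 and Pdk3 lie right of the line in both libraries and Vegfa lies at -1.91 in the naive library.

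The cDC2s were also split by the authors into mRNA clusters, 7 for naive and 9 for papain cells. The clusters were made from the mRNA itself, so a level in them is a description and no support for a difference. In the naive library, cluster 5 held 246 cells, 12.2% of cDC2s and 15.8% of their UMIs. It carried 61.3% of the Vegfa UMIs, 50% of those of Slc2a1, 44.5% of Pfkp, 39.3% of Slc2a3, 37.9% of Hk2, 36.3% of Ldha and 32.3% of Eno1. Its share of Aldoa was 16.8%, of Pgk1 16.1%, of Pdk3 8.86%, of Pfkfb3 4.94% and of Eno3 3.41%. Slc2a3 was at 58.3 CPM there and 3.03 to 28.1 CPM in the other naive clusters, and Pfkp at 152 against 17.1 to 66.1 CPM. Hk2 and Vegfa were at 129 and 98.2 CPM in cluster 5 and at 144 and 126 CPM in cluster 7, a group of 50 cells, against at most 41.3 and 19.2 CPM elsewhere in the naive library. Pgk1, which was lower in papain cDC2s as well, had no such excess in cluster 5.

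Cluster 5 of the naive library was also the one with most of the monocyte or macrophage list, at 4096 CPM (Lyz2 at 3763), against 17.7 to 192 CPM in the other 6 naive clusters and 11.5 to 85.8 CPM in the papain clusters. Among the naive clusters it had the highest MHC class II sum (52185 CPM) and Mgl2 level (276 CPM) and the lowest Ccr7, the chemokine receptor of migratory DCs, at 1389 against 2754 to 5029 CPM. Its stress gene sum was 2445 CPM, the highest of all clusters. By antibody, 58.1% of it was CD301blo, 26.0% CD301bint and 15.9% CD301bhi. Cluster 7 held the highest T cell list sum, at 659 CPM. The papain cluster with the highest Slc2a3 and Hk2, cluster 9 with 216 cells, had 21.1 and 36.3 CPM.

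**Figure D4:**
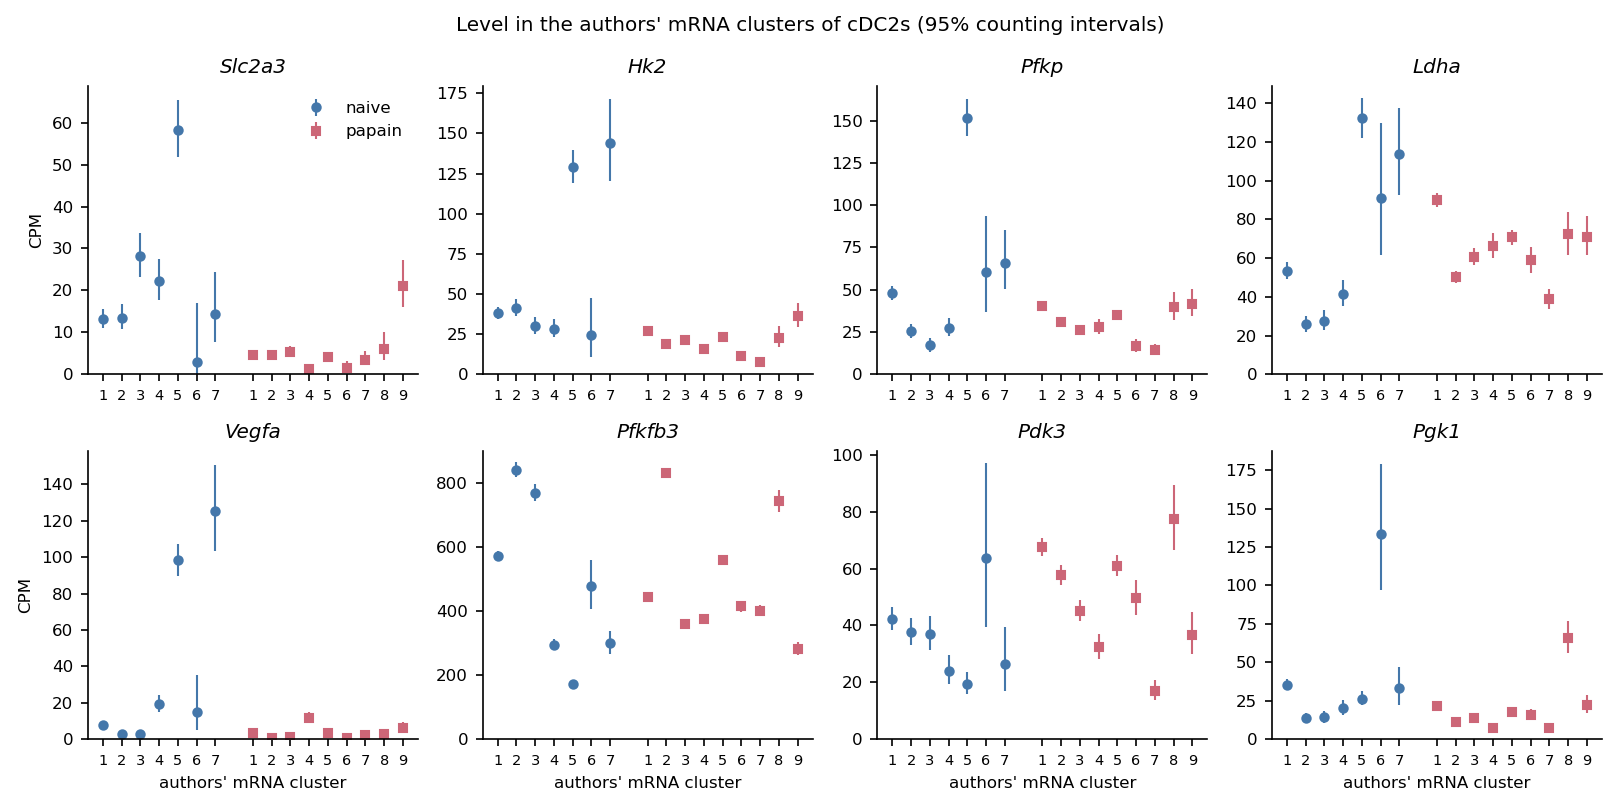
Level of 8 members in CPM (y axis, from 0) in the authors' mRNA clusters of cDC2s (x axis, cluster number), with the 7 naive clusters as blue circles and the 9 papain clusters as red squares and 95% counting intervals. Slc2a3 and Pfkp peak in naive cluster 5 (58.3 and 152 CPM), Hk2 and Vegfa in naive clusters 5 and 7, Pfkfb3 is lowest in naive cluster 5, and Pgk1 is highest in naive cluster 6 and papain cluster 8.

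With cluster 5 left out of the naive library, a setting chosen after seeing the data, the ratios of papain over naive changed gene by gene. Over all cDC2s the log2 ratio of Pfkp went from -0.74 to -0.14 (-0.24 to -0.03), that of Slc2a1 from -1.17 to -0.42 (-0.75 to -0.08), that of Hk2 from -1.33 to -0.89 (-0.997 to -0.780), that of Vegfa from -3.17 to -2.04 (-2.28 to -1.80) and that of Slc2a3 from -2.34 to -1.86 (-2.06 to -1.67). Pgk1 was at -0.62 both ways, but at -0.31 (-0.47 to -0.16) without naive cluster 1, which held 46.9% of its naive UMIs and 34.3% of all naive cDC2 UMIs. The ratios of Ldha and Eno1 went from 0.24 and 0.20 to 0.64 (0.55 to 0.73) and 0.52 (0.42 to 0.62). With each naive cluster left out in turn, the ratio stayed between -2.63 and -1.86 for Slc2a3, -1.53 and -0.89 for Hk2, -3.61 and -2.04 for Vegfa, -0.92 and -0.14 for Pfkp, -1.54 and -0.42 for Slc2a1, -0.78 and -0.31 for Pgk1, 0.02 and 0.52 for Eno1, and 0.05 and 0.64 for Ldha. By class and without cluster 5, Pfkp was no longer past 1.5-fold in CD301blo (-0.26) or CD301bhi cDC2s (-0.24), whereas Slc2a3 (-2.03, -1.43 and -2.01) and Hk2 (-1.42, -0.85 and -0.75) were still past it in CD301blo, CD301bint and CD301bhi cDC2s. Vegfa was past the threshold in CD301blo cDC2s (-2.26) and under the minimum level of 10 CPM in CD301bint (-1.32) and CD301bhi cDC2s (-1.30). Of the order within naive cDC2s, CD301bhi over CD301blo went from 1.01 to 0.86 for Pfkfb3, from 0.74 to 0.71 for Pdk3 and from -1.91 to -2.77 for Vegfa.

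Other clusters marked other members. Pgk1 was highest in naive cluster 6 (55 cells, 133 CPM) and papain cluster 8 (316 cells, 65.7 CPM), which had the lowest median depth of their libraries, at 5929 and 7249 UMIs. Pdk3 was highest in the same clusters, at 63.6 and 77.3 CPM. Pfkfb3 ranged from 171 CPM in naive cluster 5 to 842 CPM in naive cluster 2, and from 282 to 831 CPM in the papain clusters. The part of depth in these values was not tested.

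A further 3 lists of other genes of the pathway were read in the same way. Of all genes, 14.4% were higher and 9.21% lower in papain LCs, 10.3% and 12.6% in cDC1s, 11.0% and 14.2% in CD301blo, 10.7% and 10.5% in CD301bint and 10.2% and 8.39% in CD301bhi cDC2s, and the counts of these short lists are given as descriptions beside those shares. Of 22 other genes of glycolysis and the pentose phosphate pathway, 16 had a column. In CD301bhi cDC2s 10 of them had enough UMIs and 0 were past the threshold, with a median log2 ratio of papain over naive of 0.15, the highest being Pgm1 (0.39), Taldo1 (0.30) and Slc2a6 (0.23) and the lowest Eno2 (-0.53), Rpe (-0.15) and Rpia (-0.03). In LCs 3 of 9 were higher (14.4% of all genes) and 0 lower (9.21%), with a median of 0.45. These, and the other list members named outside CD301bhi cDC2s, were singled out after their values were seen. They were Slc2a6, a lysosomal sugar transporter (31.4 to 65.8 CPM), Pgm1, which links glycogen and glucose (5.83 to 10.5 CPM), and Tkt, the transketolase of the pentose phosphate pathway (52.5 to 98.1 CPM). In cDC1s 2 of 9 were higher and 0 lower, Slc2a6 at 0.92 and Tkt at 0.73. In CD301blo cDC2s 0 of 9 were higher and 1 lower, and in CD301bint cDC2s 1 of 8 was higher and 1 lower.

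Of 9 genes of pyruvate entry into mitochondria, all had a column, and in CD301bhi cDC2s 0 of 5 with enough UMIs were past the threshold, with a median log2 ratio of 0.11 and values from -0.21 for Mpc1 to 0.17 for Mpc2, the carrier subunits. In LCs 1 of 7, in cDC1s 1 of 5, in CD301blo cDC2s 1 of 7 and in CD301bint cDC2s 0 of 5 were higher, and 0 were lower. Of 25 other HIF pathway and hypoxia genes, 23 had a column. In CD301bhi cDC2s 0 of 14 were higher and 1 lower, with a median of -0.12. Bhlhe40, a transcriptional repressor that hypoxia induces, went from 479 to 288 CPM, with a log2 ratio of -0.73 (-0.78 to -0.69), and Arnt, the partner of HIF-1 alpha, from 22.2 to 15.4 CPM, with -0.53. Kdm3a had -0.38, and the highest were Fam162a (0.40), Bnip3l (0.31) and Mxi1 (0.30). In LCs 3 of 16 were higher (14.4% of all genes) and 2 lower (9.21%), numbers near those shares, among them Pgf, a relative of Vegfa, from 1.51 to 19.1 CPM, a log2 ratio of 3.66, and Adm, from 76.4 to 39.1 CPM. In cDC1s 1 of 14 was higher and 3 lower, in CD301blo cDC2s 0 of 14 and 1, and in CD301bint cDC2s 1 of 15 and 0.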

How the data were processed

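Single cells of 1 naive and 1 papain library (10x 3' v3) were processed by the authors with Cell Ranger 3.0.1 and Partek on mm10, per the submitters' processing notes. The deposited expression values are log2 of CPM plus 1 per cell, where CPM was scaled by the authors to 1000000 UMIs of the cell before some genes were left out, so that the listed genes held 0.81 to 0.979 of a cell's scale. The lowest level of a cell and its small multiples gave the value of 1 UMI, and 100.0% of values up to 50 UMIs came out whole within 0.02. The deposited count of expressed genes per cell was only compared with the number of genes above 0. The counting annotation and the use of strand were not given in the sources used here. Antibody values were not used here beyond the authors' class of each cell, and no doublet caller was run.

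UMIs were summed per class and library and divided by the summed totals. Levels carry exact Poisson intervals and ratios exact conditional binomial intervals (95.0%, scipy 1.17.1, Python 3.11.15). With 1 library per condition no p-value was computed. A difference was called at 1.5-fold with 10 CPM or more in the group with more, and the code was tested on simulated data. Promoters came from a RefSeq table of GRCm38.p6. CPM or log2 ratios by class are given for members past 1.5-fold, where they were past it, and for Hif1a and Ldha. Slc2a1 is given without its cDC1 levels, and Gapdh as ranges. Members and lists were chosen with earlier results of these data known. Alternatives were another minimum (none, 50 CPM), 2-fold, 1 CPM added, centring, the mean over cells, and filters on cells (500 genes and 10% mitochondrial UMIs). Others left out the shallower cells (under 8392 UMIs), or cells with a Cd3e or Trac, or a Mki67 or Top2a, UMI. Leaving out the shallower cells does not make the depth of the cells kept equal. Leaving out naive cluster 5 was added after seeing the data.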

Additional observations from a re-analysis of the deposited data

Results flagged for a closer look

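The droplets that the authors put in no class, 429 naive and 290 papain ones, were outside the comparisons of the report and were looked at for that reason. Of 23 members with at least 10 CPM there, 4 were higher in the papain library past 1.5-fold (17.3% of all genes were) and 6 lower (17.8% of all genes). Among the higher ones, each with an interval above 0, the log2 ratio was 0.84 for Eno1 (63.1 to 113 CPM), 0.95 for Ldha (108 to 209 CPM), 0.92 for Slc16a1 (12.7 to 24.1 CPM) and 1.21 for Pdk1 (19.7 to 45.7 CPM). Among the lower ones it was -1.15 for Hk2, -1.10 for Vegfa, -1.02 for Pfkfb3, -0.96 for Pgk1 and -0.60 for Pdk3, each with an interval below 0, and -0.61 for Slc2a3, whose interval included 0. The T cell list summed to 676 CPM in these droplets of the naive and 1687 CPM in those of the papain library, and its part in these ratios was not tested.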

How the results depend on the processing

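No paired analysis was possible because each condition was 1 library and the labels give no replicate numbers. For the same reason no replicate could be left out. Over the 8 settings that can change a gene's ratio, the 49 called gene ratios had 373 alternative values. Of these, 348 kept the call, 18 were under 1.5-fold, 6 belonged to a gene then under 10 CPM (Vegfa in 5, Hk1 in 1), and 1 turned, Vegfa in naive cDC1s over cDC2s, to 0.061 without naive cluster 5. The number of members past the threshold depended most on the minimum level. Counts are given as higher and lower, in the order LCs, cDC1s, CD301blo, CD301bint and CD301bhi cDC2s for papain over naive. Without a minimum the number was 12 (6 and 6), 10 (2 and 8), 15 (1 and 14), 11 (0 and 11) and 12 (3 and 9), each of 31 or 32 members. It was 15 (6 and 9) and 10 (8 and 2) for naive and papain LCs over cDC2s and 9 (3 and 6) and 14 (4 and 10) for cDC1s over cDC2s. For CD301bhi over CD301blo cDC2s it was 9 (2 and 7) and 8 (5 and 3). In this order of comparisons, 38.3%, 39.6%, 40.5%, 36.4%, 33.6%, 40.4%, 29.0%, 41.1%, 41.0%, 34.0% and 25.2% of all genes were past the threshold. With a minimum of 50 CPM the number was 3 (3 and 0), 2 (1 and 1), 3 (1 and 2), 0 and 2 (1 and 1), each of 8 to 11 members. It was 3 (1 and 2) and 0 for LCs and 1 (1 and 0) and 2 (0 and 2) for cDC1s. For naive and papain CD301bhi over CD301blo cDC2s it was 1 (1 and 0) and 2 (2 and 0). The shares of all genes were, in the same order, 26.2%, 19.5%, 27.2%, 24.0%, 21.9%, 21.0%, 11.0%, 30.2%, 23.4%, 12.6% and 7.56%. At 2-fold, with as many members tested as at 1.5-fold, it was 2 (1 and 1) in LCs, 2 (0 and 2) in cDC1s and 2 (0 and 2) in CD301bhi cDC2s, then 5 (1 and 4) and 1 (1 and 0) for LCs over cDC2s, 1 (0 and 1) for papain cDC1s over cDC2s and 0 for papain CD301bhi over CD301blo cDC2s, beside 2.34% to 12.5% of all genes. For the other settings, only numbers more than 1.5-fold from the main ones are given. Without cells that held a Cd3e or Trac UMI the number was 2 of 16 (1 and 1, beside 20.8% of all genes) for papain over naive in cDC1s. For naive cDC1s over cDC2s it was 8 of 19 (1 and 7, 33.7%). Without cells that held a Mki67 or Top2a UMI it was 7 of 18 in cDC1s (3 and 4, 24.7%) and 6 of 19 in CD301bint cDC2s (1 and 5, 22.0%). In CD301bint cDC2s it was 5 of 19 by the mean over cells (2 and 3, 21.1%) and 5 of 18 without naive cluster 5 (3 and 2, 18.6%), a setting added after seeing the data. The median log2 ratio of the members in CD301bhi cDC2s was 0.088 after centring on all genes, -0.012 without a minimum and 0.039 without cells that held a Mki67 or Top2a UMI. Without a minimum it was -0.19 in CD301bint and -0.40 in CD301blo cDC2s, and with a minimum of 50 CPM 0.51 in LCs. The cause of these shifts was not tested. Intervals cover counting error only, and those of genes under 10 CPM are wide in the classes with few UMIs.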
